A study of Mus musculus with 36 samples.

Results

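The MAP kinase phosphatases are dual-specificity phosphatases that switch off ERK, p38 and JNK, and 9 of the 52636 genes in the count files were taken by symbol for this family: Dusp1, Dusp2, Dusp4, Dusp5, Dusp6, Dusp7, Dusp8, Dusp10 and Dusp16. Dusp9 was not among these members and was placed in a list of other dual-specificity phosphatases. The mRNA of the 9 members was followed by RNA-seq in bone marrow-derived macrophages (BMDMs) of mice, grown in M-CSF. The WT cells came from C57BL/6N mice, and the KO cells carried an N4bp1 knockout whose deleted exons and strain are not given in the sources used here. N4bp1 encodes an RNA-binding protein with a nuclease domain that restrains inflammatory gene expression. Both genotypes were stimulated in every group with R837 (imiquimod, a small-molecule agonist of TLR7), and unstimulated cells were not analysed here.

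The 12 groups of 3 libraries were WT and KO at 3 h of R837, WT and KO at 7 h of R837, and WT and KO that had 3 h of R837 and were then given actinomycin D (ActD, an inhibitor of RNA synthesis) for 0.5, 1, 2 or 4 h. The labels give each group 3 individual mice as separate biological replicates. They do not say which libraries of different groups came from the same mouse, nor whether R837 stayed in the medium during ActD.

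A MAP kinase is active only while both the threonine and the tyrosine of its activation loop are phosphorylated, and a MAP kinase phosphatase removes both. Dusp1, Dusp2, Dusp4 and Dusp5 encode nuclear enzymes made from genes that are themselves induced by MAP kinase signalling; Dusp6 and Dusp7 encode cytoplasmic enzymes that prefer ERK; and Dusp8, Dusp10 and Dusp16 encode enzymes that prefer JNK and p38. In macrophages Dusp1 is known as a brake on p38 and JNK after Toll-like receptor stimulation, and the message of several family members is short-lived.

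Gene counts summed to between 20271550 and 46107214 per library. All 12 macrophage markers listed were detected, with a summed level of 20670 to 52000 CPM (counts per 1000000 of the normalized library size) per library. N4bp1 itself was lower in KO at 3 h (84.1 against 134 CPM) and at 7 h (143 against 175 CPM), but it was not absent. After 2 h of ActD it did not pass the test, and after 4 h it was higher in the libraries labelled KO (log2 difference 0.61, adjusted p = 8.9e-08), so N4bp1 reads do not check the labels of those 2 conditions, and KO and WT name the labelled genotype throughout. Summed markers of other cell types also differed by genotype: without overlap in all 6 conditions, the 9 B cell markers (at 3 h, 157 to 169 CPM in KO and 87.7 to 96.8 in WT) and the 11 fibroblast and stromal markers (at 3 h, 71.0 to 77.0 and 40.2 to 45.3 CPM) were higher in KO, as were the 8 osteoclast markers (at 7 h, 351 to 356 and 226 to 234 CPM), and the 8 proliferation markers were lower (at 3 h, 156 to 170 and 242 to 247 CPM). The 10 T and NK cell markers, of which 2 reached a median of 10 counts, were higher in KO without overlap in all conditions but 7 h (at 3 h, 23.6 to 25.7 and 11.7 to 14.4 CPM, and at 4 h of ActD, 31.3 to 35.5 and 10.6 to 12.2 CPM). The 12 neutrophil markers were higher in KO without overlap at 7 h (987 to 1028 and 653 to 668 CPM) and at 1 h of ActD (828 to 919 and 675 to 701 CPM), and the 10 dendritic cell markers at 2 h and 4 h of ActD (at 4 h, 34.9 to 40.3 and 24.7 to 32.9 CPM). The macrophage markers were lower in KO without overlap at 2 h (30640 to 30840 and 31040 to 34490 CPM) and 4 h of ActD (35970 to 37060 and 39240 to 52000 CPM) and slightly higher at 7 h (25230 to 25650 and 24820 to 25160 CPM). The summed mast cell and basophil markers stayed below 10 CPM and the erythroid ones below 1 CPM in every library. Among the markers of other cell types, Mcpt4 and Alas2 were at 0 in all 36 libraries. The part of these markers in the genotype differences below was not tested, and in bulk RNA fewer cells of a type and less RNA per cell cannot be told apart.

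Levels of different genes were compared as RPKM, which divides by gene length. At 3 h of R837 in WT cells, Dusp1 was at 390, 371 and 354 RPKM and Dusp2 at 155, 148 and 139 RPKM. Dusp16 followed at 23.7, 24.5 and 23.2 RPKM. Dusp4 (mean 4.14) overlapped with Dusp7 (3.84), and Dusp7 with Dusp5 (3.61), but Dusp4 and Dusp5 did not overlap, and Dusp6 was at 2.41, Dusp10 at 0.469 and Dusp8 at 0.0744 RPKM. Dusp8 had 7 to 13 counts and Dusp10 32 to 43 counts per library at this time.

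The order changed with time and genotype. At 7 h in WT cells Dusp7 (10.3 RPKM) and Dusp6 (6.51 RPKM) stood above Dusp5 (3.74) and Dusp4 (3.15). At 7 h in KO cells Dusp16 reached 44.3 RPKM, and Dusp7 (11.6) and Dusp5 (10.8) overlapped. After 1 h of ActD the highest member was Dusp16, at 17.0 RPKM in WT and 17.5 in KO, above Dusp1 at 7.51 and 8.13.

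**Figure D1:**
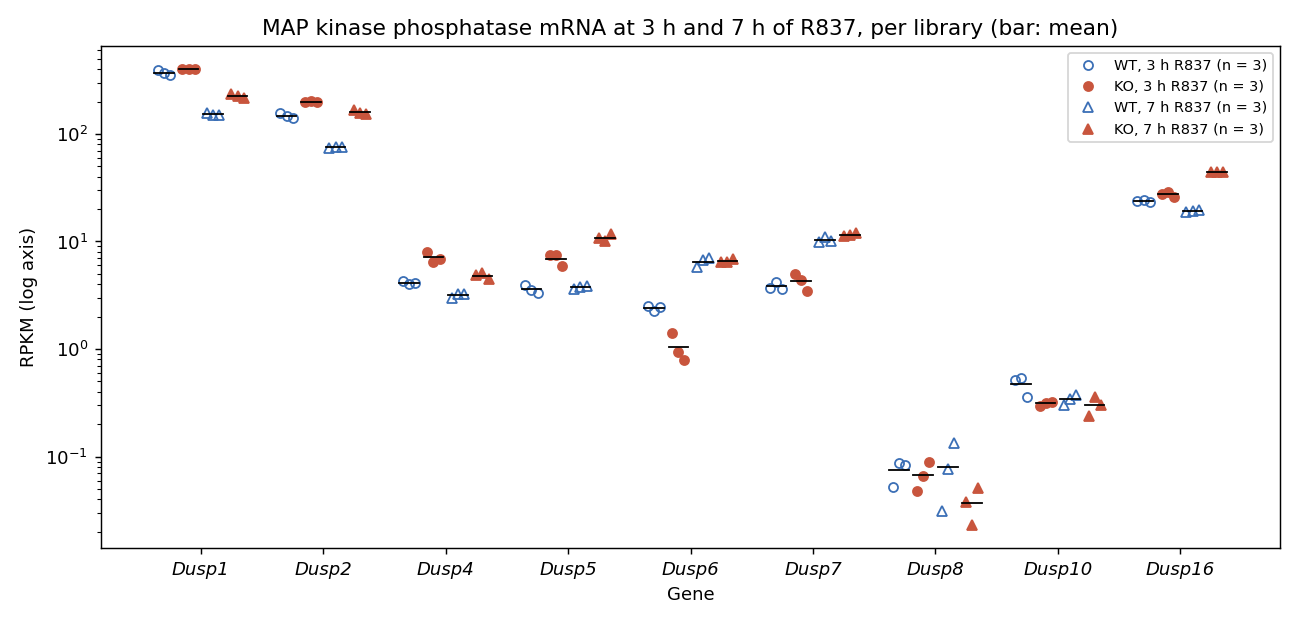
RPKM on a log axis of each family member at 3 h (circles) and 7 h (triangles) of R837 without ActD, in WT (open) and KO (filled) libraries, 3 per group, with a bar at the group mean. Dusp1 and Dusp2 are the highest members at both times, Dusp6 is lower in KO at 3 h only, and Dusp16 in KO rises to 44.3 RPKM at 7 h.

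The annotation (GENCODE M21, build GRCm38) places Dusp1 on chromosome 17, minus strand, from 26505590 to 26562128, Dusp2 on chromosome 2, plus strand, from 127336159 to 127338376, Dusp5 on chromosome 19, plus strand, from 53529109 to 53542431, and Dusp16 on chromosome 6, minus strand, from 134715468 to 134792625. RefSeq promoter sequence (GRCm38.p6) was found for 8 of the 9 members; Dusp4 was not matched. Starts here are those of RefSeq, which for Dusp1 and Dusp5 lie downstream of the 5' end of the GENCODE gene, so their windows reach into or lie within the coordinates just given. The 150 bases before the start are shown for Dusp1 and Dusp5, which are among the 3 members with matches described next, and for Dusp2, whose profile over the groups was close to that of Dusp1 and whose window holds none. Capitals mark a cyclic AMP response element (TGACGTCA) in Dusp1, and in Dusp5 a pair of adjoining CArG boxes (the serum response factor motif) and the reverse complement of the shorter element TGACGT.
Dusp1, chr17:26508473-26508622, minus strand: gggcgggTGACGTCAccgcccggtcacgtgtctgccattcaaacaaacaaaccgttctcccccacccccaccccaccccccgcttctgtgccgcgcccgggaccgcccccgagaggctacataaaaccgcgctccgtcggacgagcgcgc
Dusp2, chr2:127336009-127336158, plus strand: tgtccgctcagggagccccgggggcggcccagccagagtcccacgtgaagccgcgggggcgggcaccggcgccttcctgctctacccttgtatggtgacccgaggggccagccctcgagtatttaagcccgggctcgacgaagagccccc
Dusp5, chr19:53528995-53529144, plus strand: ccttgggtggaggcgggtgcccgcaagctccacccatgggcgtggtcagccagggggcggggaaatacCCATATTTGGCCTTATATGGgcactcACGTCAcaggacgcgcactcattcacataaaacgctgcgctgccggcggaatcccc

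These motifs were searched on both strands in the 250 bases before each start: TGACGTCA, its shorter form TGACGT (which every TGACGTCA also contains), the AP-1 motif TGANTCA, the NF-kB motif, the CArG box and TATAAA. TGACGTCA was found in Dusp1 and at 2 places in Dusp8, and in 1.55% of 32851 promoters of that length. The CArG box was found in Dusp5 alone among the 8, at 82 to 73 and 72 to 63 bases before the start, and in 1.47% of promoters. TGACGT was found in Dusp1, Dusp5 and Dusp8 and in 6.47% of promoters. No match to TGANTCA (6.75% of promoters), the NF-kB motif (7.25%) or TATAAA (12.4%) lay in these windows. The matches are letters in a window, with no measurement of binding behind them.

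At 3 h of R837, KO cells held more mRNA of Dusp2, Dusp4, Dusp5 and Dusp16 and less of Dusp6 than WT cells. Of the 9 members, 4 were higher and 1 was lower in KO (adjusted p below 0.05 in edgeR's quasi-likelihood test), beside 15.2% of the 13748 genes tested called higher and 12.6% called lower. All 9 members passed the filter on low counts. The median log2 difference was 0.18 over the members and 0.01 over all genes tested.

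Among the nuclear members, Dusp5, a phosphatase of ERK, differed most at 3 h: its 3 KO libraries were at 19.0, 19.0 and 15.3 CPM and its WT libraries at 9.96, 8.97 and 8.4 CPM. The libraries of the genotypes did not overlap, and the log2 difference was 0.97 ± 0.12 (SE, n = 3 and 3, adjusted p = 1.4e-07), a 1.96-fold higher level. A GENCODE antisense transcript shares 547 exonic bases with Dusp5 and the strand setting of the counting is not given in the sources used here, so reads of the pair cannot be told apart. Dusp4, another nuclear phosphatase, was at 22.6, 18.3 and 19.8 CPM in KO and 12.03, 11.1 and 11.5 CPM in WT. Every KO library of Dusp4 lay above every WT library (log2 0.81 ± 0.10, adjusted p = 1.8e-07).

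Dusp2, an enzyme of activated immune cells, was at 327, 338 and 337 CPM in KO and 256, 244 and 230 CPM in WT at 3 h. The difference was smaller than for Dusp4 and Dusp5 in fold but also without overlap (log2 0.46 ± 0.08, adjusted p = 1.5e-05). Dusp1 was at 809, 822 and 842 CPM in KO and 792, 752 and 720 CPM in WT. Although its libraries did not overlap, the log2 difference of 0.13 ± 0.08 did not pass the test (adjusted p = 0.21, 95% interval -0.02 to 0.28). Scaling to a list of stable reference genes made that difference 0.33 with an adjusted p of 0.011.

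Dusp6, a cytoplasmic phosphatase of ERK and itself a target of ERK signalling, went the other way at 3 h. Its KO libraries were at 4.02, 2.75 and 2.35 CPM and its WT libraries at 7.12, 6.50 and 7.01 CPM. All 3 KO libraries were below all 3 WT libraries, and the level in KO was 45.0% of that in WT (log2 -1.15 ± 0.16, adjusted p = 5.8e-07). Its closest relative Dusp7, at 16.3, 14.6 and 11.6 CPM in KO and 12.2, 13.8 and 11.8 CPM in WT, overlapped between genotypes (adjusted p = 0.21). Without replicate 3 of KO at 3 h that Dusp7 difference was 0.29 and passed (adjusted p = 0.028), and with the stable reference scaling it was 0.38 and passed (adjusted p = 0.023).

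Of the JNK and p38 phosphatases at 3 h, Dusp16 was at 215, 226 and 203 CPM in KO and 182, 188 and 178 CPM in WT (log2 0.23 ± 0.07, adjusted p = 0.0068). This call was lost without replicate 2 of KO at 3 h (log2 0.19, adjusted p = 0.055), and the difference shrank to 0.07 when the trend of log2 difference with gene length was removed. Stable reference scaling raised it to 0.44 (adjusted p = 0.0027). Dusp10 had 23 to 29 counts in KO and 32 to 43 in WT, and Dusp8 8 to 11 and 7 to 13. Neither passed the test (adjusted p = 0.21 and 0.86), and counts this low leave intervals of -1.21 to 0.09 and -1.12 to 0.83 on the log2 scale.

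At 7 h of R837 the KO cells held more mRNA of 6 members, Dusp1, Dusp2, Dusp4, Dusp5, Dusp7 and Dusp16, with 0 lower by the same test, beside 15.5% of all genes tested called higher and 15.1% called lower. The median log2 difference was 0.66 over the members and -0.01 over all genes.

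Dusp16 was at 378, 382 and 382 CPM in KO and 151, 154 and 160 CPM in WT. Its KO libraries lay far above the WT libraries and within a narrow range of each other, 2.46-fold higher (log2 1.30 ± 0.07, adjusted p = 3.2e-19). Removing the length trend left 1.24. Dusp5 was at 30.4, 28.5 and 32.9 CPM in KO and 9.61, 9.95 and 10.1 CPM in WT, 3.09-fold higher (log2 1.63 ± 0.12). Of 8664 genes with a mean of at least 5 CPM, Dusp5 ranked 54 and Dusp16 105 by log2 difference, counted from the highest.

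Dusp2 stood at 307, 291 and 280 CPM in KO against 129, 130 and 131 CPM in WT at 7 h, a log2 difference of 1.17 ± 0.08. Dusp1, which did not pass at 3 h, was at 542, 513 and 489 CPM in KO and 337, 321 and 317 CPM in WT at 7 h, a 1.58-fold difference (log2 0.66 ± 0.08, adjusted p = 3.6e-09). Dusp4 was at 15.5, 15.9 and 13.9 CPM in KO and 8.71, 9.41 and 9.62 CPM in WT, a log2 difference of 0.71 ± 0.11. For all 3 of these nuclear phosphatases the libraries of the genotypes stood apart.

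Dusp7 was at 41.3, 42.5 and 44.1 CPM in KO and 34.1, 37.5 and 34.9 CPM in WT at 7 h. The libraries did not overlap, but the call was marginal (log2 0.26 ± 0.09, adjusted p = 0.027). It was lost without KO replicate 2 or 3 or WT replicate 1 or 3 (adjusted p from 0.067 to 0.11), with the stable reference scaling (0.11) and without the count filter (0.071). Dusp6, lower in KO at 3 h, was at 20.8, 20.6 and 21.8 CPM in KO and 17.5, 20.01 and 21.0 CPM in WT at 7 h. The ranges overlapped, and the interval of the log2 difference, -0.14 to 0.36, does not reach the difference of -1.15 seen at 3 h. Dusp8 (3 to 7 counts in KO, 5 to 20 in WT) and Dusp10 (22 to 27 and 28 to 34 counts) did not pass.

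**Figure D2:**
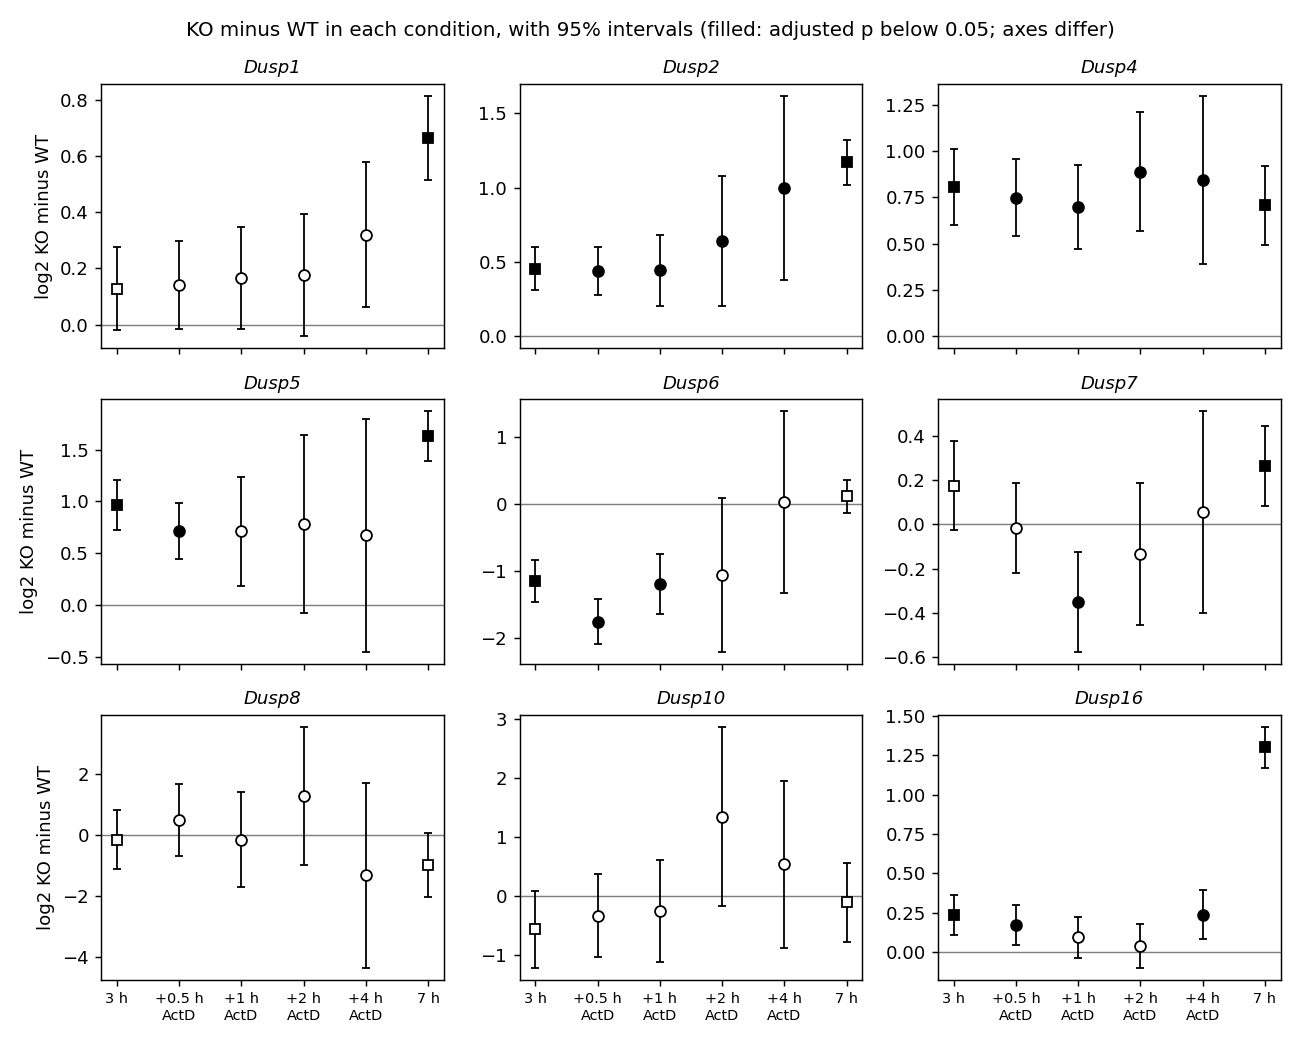
Log2 difference of KO minus WT with its 95% interval for each member in the 6 conditions: 3 h and 7 h of R837 (squares) and 3 h of R837 followed by 0.5 to 4 h of ActD (circles), filled where the adjusted p was below 0.05, with a separate axis range in each panel. Dusp4 stays near its 3 h value of 0.81 in every condition, Dusp6 is called lower at 3 h and at 0.5 and 1 h of ActD and is as negative, at -1.06 without a call, at 2 h, and Dusp16 is high at 7 h alone with 1.30.

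Between 3 h and 7 h of R837 in WT cells the mRNA of Dusp1, Dusp2, Dusp4 and Dusp16 fell and that of Dusp6 and Dusp7 rose, so 2 members were higher and 4 lower at 7 h, beside 27.3% of all genes called higher and 30.7% called lower. These counts lie near the shares over all genes. Dusp1 went from a mean of 755 to 325 CPM (log2 -1.22 ± 0.08) and Dusp2 from 243 to 130 CPM (log2 -0.91 ± 0.08). The 2 members that encode cytoplasmic ERK phosphatases rose almost equally, Dusp6 2.83-fold and Dusp7 2.82-fold (log2 SE 0.14 and 0.10). Dusp5 changed by 0.12 ± 0.13, which did not pass (adjusted p = 0.43). The smaller falls of Dusp4 (-0.32) and Dusp16 (-0.24) were lost with the stable reference scaling (adjusted p = 0.16 and 0.30), and that of Dusp4 without WT replicate 1 at 7 h (adjusted p = 0.053).

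In KO cells 4 members rose (Dusp5, Dusp6, Dusp7 and Dusp16) and 3 fell (Dusp1, Dusp2 and Dusp4), beside 28.7% of all genes called higher and 31.7% called lower, again near the shares over all genes. Dusp6 rose 6.80-fold (log2 2.77 ± 0.15), from a mean of 3.04 to 21.0 CPM. Dusp16 rose from 215 to 381 CPM (log2 0.83 ± 0.07), where in WT it had fallen from 183 to 155 CPM. Dusp1 fell by 0.68 ± 0.08 and Dusp2 by 0.19 ± 0.08 on the log2 scale. The fall of Dusp2 was marginal (adjusted p = 0.028), and was lost with RLE normalization (0.051), without the count filter (0.051), and without replicate 2 or 3 of KO at 3 h or at 7 h (0.061 to 0.12).

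The difference between genotypes in this change was tested directly as an interaction. It passed for 5 members, all with a higher value in KO, beside 5.45% of all genes called higher. The interaction was largest for Dusp6 (log2 1.26 ± 0.20, adjusted p = 1.3e-05) and Dusp16 (1.07 ± 0.09, adjusted p = 1.6e-11), followed by Dusp2 (0.72 ± 0.11, adjusted p = 3.4e-06), Dusp5 (0.66 ± 0.17, adjusted p = 0.0066) and Dusp1 (0.54 ± 0.11, adjusted p = 0.00035). For Dusp6 the KO cells began lower and ended level with WT, whereas for the other 4 they ended further above WT. With the stable reference scaling the count was 3, since Dusp1 (0.34, adjusted p = 0.10) and Dusp5 (0.45, adjusted p = 0.17) did not pass. Dusp4 (-0.10 ± 0.15) and Dusp7 (0.09 ± 0.14) did not pass by either scaling.

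**Figure D3:**
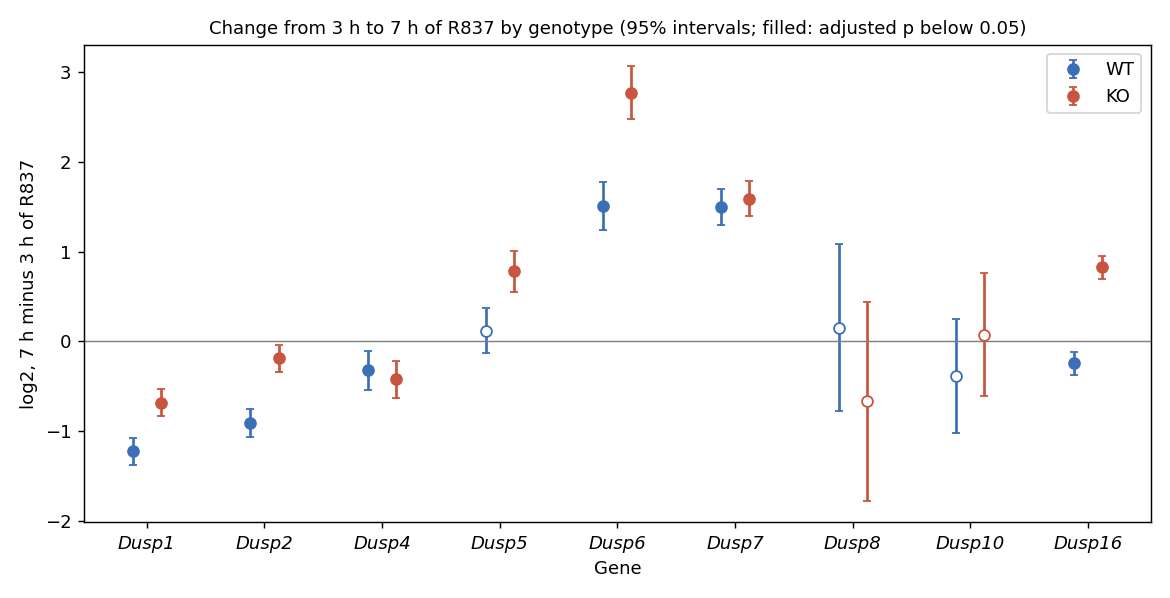
Log2 change from 3 h to 7 h of R837 in WT and KO cells for each member with 95% intervals, filled where the adjusted p was below 0.05. Dusp6 and Dusp7 are above 0 in both genotypes, Dusp1, Dusp2 and Dusp4 are below 0 in both, and Dusp16 is at -0.24 in WT and 0.83 in KO.

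Transcription was then blocked with ActD after 3 h of R837, and the loss of each message was followed. Values are relative to the rest of the library, so a loss is a fall faster than that of the average transcript. After 0.5 h, 3 members were lower in WT (Dusp1, Dusp2 and Dusp5), beside 3.51% of all genes called lower, and 4 in KO (those 3 and Dusp6), beside 4.34%. No member was higher.

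Dusp1 dropped within 0.5 h from a mean of 755 CPM to 60, 55.6 and 57.8 CPM in WT, which is 7.66% of the level without ActD (log2 -3.71 ± 0.09). In KO it dropped from 825 CPM to 62.6, 67.6 and 61.1 CPM, or 7.73%. Among 8664 genes with a mean of at least 5 CPM, the fall of Dusp1 ranked 3 in WT and 4 in KO counted from the largest, and that of Dusp2 ranked 5 in both. Dusp2 was left at 29.0, 25.3 and 28.7 CPM in WT (11.3%) and at 37.7, 36.8 and 37.8 CPM in KO (11.2%).

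Dusp5 had a different time course. It fell to 55.8% in WT and 46.7% in KO in the first 0.5 h and then by 3.03 on the log2 scale in the next 0.5 h in both genotypes, the steepest step of its course. Dusp1 lost most at the start, with steps per hour of -7.41, -3.79, -1.01 and -0.42 log2 units in WT over 0 to 0.5, 0.5 to 1, 1 to 2 and 2 to 4 h. Dusp2 kept falling for longer, with -6.28, -5.63, -2.08 and -0.61 log2 units per hour.

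Dusp4, Dusp7 and Dusp16 showed no fall that passed the test at 0.5 h in either genotype. Dusp16 was at 224, 206 and 189 CPM in WT after 0.5 h, above the 178 to 188 CPM without ActD, a difference of 0.18 ± 0.07 that did not pass (adjusted p = 0.098) but did without replicate 3 of WT at 0.5 h (0.23, adjusted p = 0.018). Its later steps in WT were -1.27, -1.66 and -0.67 log2 units per hour, so it was lost fastest between 1 and 2 h. Dusp4 and Dusp7 ran alongside, with 53.9% and 65.2% left in WT at 1 h and 16.1% and 21.0% at 2 h. Dusp6 in WT differed by 0.01 ± 0.14 on the log2 scale at 0.5 h, which did not pass, then fell to 30.2% at 1 h and to 3.68% at 2 h.

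At 1, 2 and 4 h of ActD all 9 members passed the test in both genotypes, each of them lower than without ActD. All genes called in either direction made up 22.0% in WT and 36.2% in KO at 1 h, 49.8% and 51.3% at 2 h, and 68.5% and 68.0% at 4 h. Of these genes, 1643 in WT and 2685 in KO were lower at 1 h, 3638 and 3773 at 2 h, and 5027 and 5049 at 4 h. The Dusp8 calls at 1 h, on 1 to 5 counts per library in WT and 2 to 4 in KO, were lost with DESeq2 (adjusted p = 0.081 and 0.062) and without the count filter (0.081 and 0.068). In KO the Dusp8 call at 2 h was lost without replicate 2 at 2 h (edgeR adjusted p = 0.080) or replicate 3 at 3 h (0.051). The Dusp10 call in KO at 1 h was lost without replicate 2 at 1 h (0.084). By 4 h, 0.572% of Dusp1 and 0.164% of Dusp2 were left in WT. Dusp2 had the largest fall of the 8664 genes at 2 h and at 4 h in both genotypes. Dusp16, Dusp7 and Dusp4 kept 9.05%, 8.51% and 7.17% in WT, and 9.08%, 7.84% and 7.36% in KO.

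The low members bound the precision here. At 4 h Dusp5 had 4, 2 and 2 counts in the WT libraries and 12, 3 and 5 in KO, Dusp6 had 4, 2 and 1 and 6, 2 and 3, and Dusp10 had 2, 2 and 3 and 9, 5 and 2. Dusp8 had 1, 1 and 0 counts in WT and 1, 0 and 0 in KO, so no fold is given. In the WT libraries at 4 h Dusp2 held 5, 14 and 4 counts and Dusp4 12, 22 and 14, so their percentages left are imprecise too. These counts show a loss but not its exact size.

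**Figure D4:**
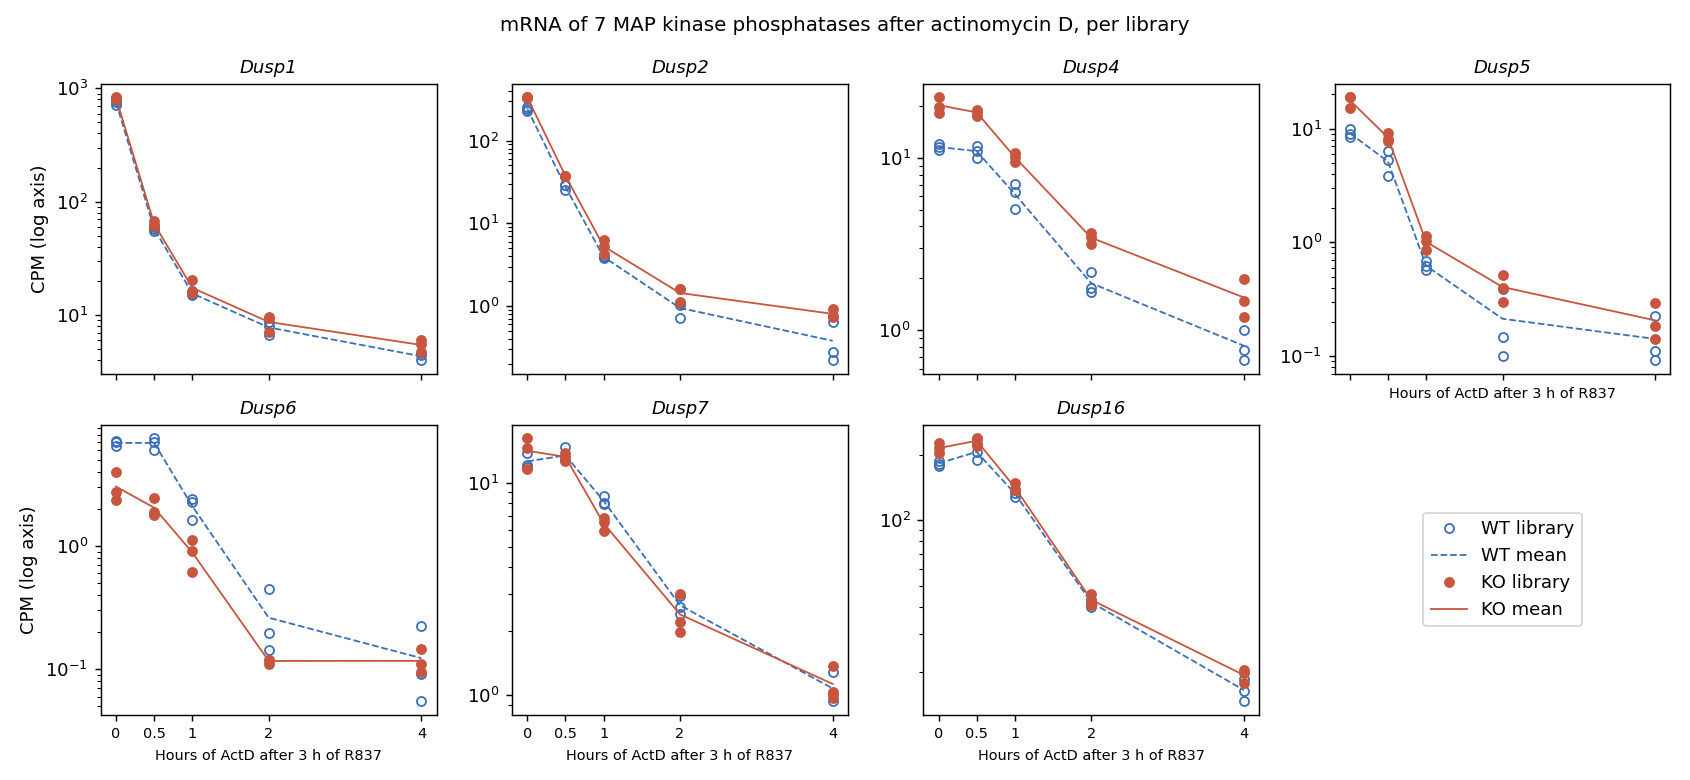
CPM on a log axis against hours of ActD after 3 h of R837 for 7 members, with WT libraries open, KO libraries filled and lines through the group means; Dusp8 and Dusp10 are left out because single libraries were at 0 or a few counts. Dusp1 and Dusp2 fall at once in both genotypes, Dusp4, Dusp7 and Dusp16 change little before 0.5 h, and the Dusp4 lines of KO and WT run in parallel.

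The 3' untranslated regions were searched for the AU-rich pentamer ATTTA, a letter pattern bound by proteins such as Zfp36 that promote decay. Dusp2 held 6.88 and Dusp1 5.80 ATTTA per kb, against a median of 1.33 over 11617 tested genes with a 3' region, and 2.63% and 4.25% of those genes held as many or more per kb. The other members held between 0 (Dusp7) and 2.70 (Dusp10) per kb, with 1.24 in Dusp16, 1.80 in Dusp4 and 0.90 in Dusp5. The longer pattern TTATTTATT, which contains ATTTA, was found in Dusp1 and Dusp8 and in 8.11% of the genes. The density was highest in Dusp1 and Dusp2, the 2 members lost most within 0.5 h. Dusp5, which was also lower at 0.5 h, had fewer per kb than the median gene. By number, Dusp8 held 5 ATTTA and Dusp1 and Dusp2 held 4 each, and 38.8% of the genes held 3 or more. Only the transcript with the longest 3' region of each gene was searched. A part of these patterns in the loss was not tested. A 30-base site is shown for each of the fast Dusp1 and Dusp2 and the slower Dusp16, with the patterns in capitals.
Dusp1, chr17:26506157-26506186, minus strand: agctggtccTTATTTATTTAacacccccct
Dusp2, chr2:127337998-127338027, plus strand: aaattaATTTAattaattaATTTActatat
Dusp16, chr6:134715961-134715990, minus strand: gtaagatgtaATTTATTTAagaatgaaaac

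Loss of message was then compared between genotypes. The difference in loss passed for 0 of 9 members at 0.5 h (beside 0.0218% of all genes), 0 at 2 h (0.0582%) and 0 at 4 h (0.291%) in edgeR, where 1, 2 and 0 members had an unadjusted p below 0.05. DESeq2 called 0, 43 and 78 genes in all at those times, and 0 of the 9, 3 and 6 members to which it gave an adjusted p. For Dusp1 at 0.5 h the difference was 0.01 ± 0.11 and for Dusp2 -0.02 ± 0.11 on the log2 scale. The member with an unadjusted edgeR p below 0.05 at 0.5 h was Dusp6 (-0.61 ± 0.24, a larger fall in KO). At 2 h they were Dusp10 (1.91 ± 0.84, on 4 to 6 counts in KO and 0 to 4 in WT) and Dusp16 (-0.20 ± 0.10). With so few genes called, a lack of calls at these times does not show equal loss. A single slope over 0 to 4 h was negative for all 9 members in WT (34.8% of 13537 genes called negative) and KO (35.8%). Its genotype difference passed for 0 members (0.0665% of genes, 0 members with an unadjusted p below 0.05). The Dusp2 slope was -4.182 log2 units per hour in WT and -3.225 in KO (with DESeq2, -2.218 and -2.039). By slope difference, Dusp2 ranked 1 from the highest of 8664 genes with a mean of at least 5 CPM. Dusp6 ranked 10, Dusp5 34, Dusp1 55, Dusp4 777, Dusp16 3772 and Dusp7 4897. A straight line fits such courses poorly: the Dusp1 slope in WT was -1.95 log2 units per hour over 0 to 4 h and -5.67 over 0 to 1 h. The misfit adds to the error of the slope test, so its lack of calls does not show equal loss.

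At 1 h the difference in loss passed for 1 member, beside 6.84% of all genes called in that direction. Dusp7 was at 8.66, 8.02 and 7.95 CPM in WT and 6.51, 5.95 and 6.84 CPM in KO after 1 h, and its fall was larger in KO by 0.53 ± 0.16 log2 units (adjusted p = 0.028). The result was fragile: it was lost without any 1 of 8 of the 12 libraries involved, with an adjusted p of up to 0.15 without replicate 1 of KO at 3 h, and the count of all genes called went from 1477 to 89 without that same library. With the stable reference scaling Dusp16 passed as well (-0.48, adjusted p = 0.019) and the Dusp7 difference was -0.87 (adjusted p = 0.0039), in a setting that called 4150 genes.

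KO was also compared with WT at each time of ActD. After 0.5 h of ActD 4 members were higher and 1 lower in KO, beside 13.7% and 12.7% of all genes, and after 1 h 2 and 2, beside 7.51% and 9.92%. After 2 h 2 were higher and 0 lower, beside 14.7% and 15.4% of all genes, and after 4 h 3 and 0, beside 17.7% and 17.9%. Dusp4 was called higher at all 4 times, by 0.75, 0.70, 0.89 and 0.84 on the log2 scale, with KO libraries above WT libraries each time. At 4 h it was at 1.19, 1.98 and 1.48 CPM in the libraries labelled KO and 0.67, 1.01 and 0.77 CPM in those labelled WT.

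Dusp2 was also called higher in KO at all 4 times, by 0.44, 0.44, 0.64 and 1.00. The 1 h call was lost without replicate 1 of KO (0.28, adjusted p = 0.17) and with the stable reference scaling (0.13). The 2 h call was lost without KO replicate 1 or 2 or WT replicate 2 (adjusted p 0.10 to 0.22). At 4 h its WT libraries held 5, 14 and 4 counts and its KO libraries 30, 16 and 25, and the difference was 1.66 without WT replicate 2 and not called without WT replicate 1 (0.83, adjusted p = 0.063) or 3 (0.73, adjusted p = 0.12).

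Dusp6 stayed lower in KO at 0.5 h, at 1.80, 2.45 and 1.89 CPM against 6.04, 7.56 and 6.99 CPM (log2 -1.76 ± 0.17), and at 1 h (-1.19 ± 0.23). At 2 h the difference was of similar size, -1.06 ± 0.59, and the libraries did not overlap, but on 3 counts in each KO library and 4 to 9 in WT it did not pass (adjusted p = 0.17). At 4 h the libraries overlapped (0.02 ± 0.69). Its fall within KO over the first 0.5 h (-0.60, adjusted p = 0.042) was lost without replicate 1 of KO at 3 h (-0.32, adjusted p = 0.42), without replicate 1 or 3 of KO at 0.5 h (0.14 and 0.21) and with the stable reference scaling (0.062). Dusp5 was higher in KO at 0.5 h (0.71 ± 0.14) and missed the threshold at 1 h (0.71 ± 0.27, adjusted p = 0.061), where DESeq2 gave 0.048. On 2 to 13 counts per library at 2 h its difference of 0.78 did not pass, but without WT replicate 2 it was 1.67 and passed (adjusted p = 0.033).

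Dusp7 was lower in KO at 1 h (-0.35 ± 0.12, adjusted p = 0.030), a call lost without any 1 of 5 of the 6 libraries and without the count filter (0.061). Dusp16 was called higher in KO at 0.5 h (0.17, adjusted p = 0.049) and at 4 h (0.24, adjusted p = 0.018). Its libraries overlapped at both times, each call was lost without any 1 of 4 of the 6 libraries, and removing the length trend left 0.04 and 0.09. The 0.5 h call was also lost without the count filter (0.11), and both with only the libraries compared (0.19 and 0.11). Stable reference scaling moved the values the other way, to 0.30 (adjusted p = 0.044) and 0.51 (adjusted p = 0.0011). Without WT replicate 3 the 0.5 h value was 0.11. Dusp1 did not pass at any of the 4 times, with 0.32 ± 0.13 at 4 h (adjusted p = 0.055), and passed at 4 h without KO replicate 1 (0.43, adjusted p = 0.022), without the count filter (0.028) and with the stable reference scaling (0.61, adjusted p = 0.00099).

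The cells at 7 h of R837 were also compared with cells that had 3 h of R837 and then 4 h of ActD. All 9 members were higher without ActD in both genotypes, beside 37.9% of all genes called higher in WT and 38.0% in KO. Dusp16 stood 9.34-fold higher in WT and 19.5-fold in KO. The genotype difference of that contrast passed for 1 member, Dusp16 (log2 1.06 ± 0.10, adjusted p = 4.9e-10), beside 6.71% of all genes called higher. Dusp1 gave 0.34 ± 0.15 with an adjusted p of 0.13.

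The kinases that these phosphatases act on, and the rest of the pathway, were taken as lists. Over all genes tested, 15.2% were higher and 12.6% lower at 3 h, and 15.5% and 15.1% at 7 h, and many of the counts below lie near those shares. Of 10 MAP kinases tested, 3 were higher and 1 lower in KO at 3 h, and 2 were higher and 1 lower at 7 h. Mapk14, which encodes p38 alpha, was lower at both times (log2 -0.37 and -0.39), Mapk6, an atypical kinase, was higher (0.28 and 0.32), and Mapk8, which encodes JNK1, was higher at 7 h (0.52 ± 0.08, adjusted p = 1.8e-06). Of 7 MAP kinase kinases, 0 passed at 3 h and 4 were higher at 7 h, among them the p38 activators Map2k3 (0.70) and Map2k6 (1.38) and the JNK activator Map2k4 (0.40). Of 21 upstream kinases, 5 were higher and 2 lower at 3 h and 8 and 4 at 7 h. Map3k5 (ASK1) had the smallest adjusted p of these at 7 h, at 6.94 CPM in KO and 2.50 in WT (log2 1.47 ± 0.14), with Map3k6 at 0.85, and at 3 h Taok1 (0.39) and Braf (0.47) were higher.

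Kinases downstream of the MAP kinases were higher for 5 of 10 and lower for 0 at 3 h, with Mapkapk2, the main p38 effector kinase, at 0.30 and Rps6ka1 at 0.26. At 7 h 2 were higher (Mapkapk3 at 0.82 and Rps6ka4 at 0.49) and 2 lower, among them Mknk2 (-0.46). Of 13 feedback inhibitors of RAS and ERK signalling, 5 were higher and 3 lower at 3 h and 3 and 1 at 7 h; over all genes 15.2% and 12.6% were called at 3 h and 15.5% and 15.1% at 7 h, which the 7 h counts lie near. Errfi1, an inhibitor of EGF receptor family kinases, was higher at both times (0.79 and 1.58), Spred2 at 3 h (0.77) and Rasa2 at 7 h (0.57), and Rasa1 was lower at 7 h (-0.34).

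Of 17 other dual-specificity phosphatases, 4 were higher and 4 lower at 3 h, and 2 were higher and 5 lower at 7 h, beside 15.2% higher and 12.6% lower over all genes at 3 h and 15.5% and 15.1% at 7 h. Their median at 7 h was -0.10. Ssh1, which acts on cofilin, was higher at 3 h (0.61), Dusp22 was lower at 3 h and 7 h (-0.41 and -0.73), and Dusp3 (-0.43) and the cell cycle phosphatase Cdc25b (-0.83) were lower at 7 h. Of 9 other phosphatases that act on MAP kinases, 2 were higher at 3 h (Ppm1l at 0.62 and Ppp2cb at 0.17) and 1 at 7 h (Ppp2cb, a catalytic subunit of PP2A, at 0.49). Of 12 scaffolds and adaptors, 4 were higher and 0 lower at 3 h (Tab2 at 0.29 and Nfkb1 at 0.32), and 4 were higher and 2 lower at 7 h (Nfkb1 at 0.71, Ksr1 at 0.68 and Arrb2 at -0.35).

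Likeness between profiles was described by Pearson's r over the 12 group means of log2 CPM, among 8223 genes. The large effect of ActD runs through these means, so r is high for many genes and carries no p. Dusp1 was most like Zfp36 (0.988), which encodes an AU-rich element binding protein, Dusp2 (0.988) and Socs3 (0.976), an inhibitor of cytokine signalling. Dusp2 was most like Socs3 (0.997). Dusp4 was most like Itpkc, Klf3 and Sgk1, Dusp5 like Edn1, Fosl2 and Zfp84, and Dusp7 like Uspl1, Fnip2 and Gzf1. Dusp6 (Ggnbp2, Zbtb1 and Ssh2) and Dusp16 (Hif1an, Ppp1r15b and Adora2b) had different nearest genes, with r of 0.976 to 0.980 and 0.989 to 0.992. The sparse Dusp8 and Dusp10 both had Myc as the nearest gene (0.978 and 0.977).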

How the data were processed

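RNA was made into libraries with the TruSeq RNA v2 kit and sequenced as single-end 50 bp reads, per the labels' protocols. Reads were aligned with GSNAP to GRCm38, per the submitters' processing notes. No counting program, strand setting or annotation release is given in the sources used here. Per gene, the deposited files hold whole-number exonic read counts, gene widths and RPKM, computed by the authors; RPKM was used only to compare levels between genes.

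Counts were fitted with edgeR 4.0.16 in R 4.3.3 (TMM normalization, filterByExpr, quasi-likelihood F test, Benjamini-Hochberg adjustment over 13748 genes, threshold 0.05) in 1 model of 12 groups, and in a slope model over ActD time. CPM use TMM-normalized library sizes. Each SE was taken back from the test, as the size of the log2 value divided by the square root of its F statistic. The 95% intervals are 1.96 SE. Such an SE is unreliable for values very near 0, as for Dusp8 in the genotype difference over 1 h of ActD (0.004 with an SE of 6.78). Alternatives were RLE and stable-reference scaling, other filters, only the libraries compared, DESeq2 1.42.0, removal of a length trend, a threshold of 0.01 and leaving out each of 36 libraries. The fitting code was tested on simulated data. Replicate pairs differed beyond sampling noise (chi-square per degree of freedom 2.23 to 45.6 over 36 pairs), so each counted once.

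The members, gene lists and tests were chosen with earlier results of these data known. Named genes were all 9 members, N4bp1, up to 3 genes at 7 h and 2 at 3 h of each pathway list with the smallest adjusted p among those passing in KO minus WT, and the 3 genes most like each member. Of the genes this rule names, 1 is not reported here.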

Additional observations from a re-analysis of the deposited data

Results flagged for a closer look

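Results in which the genotypes differed in the same contrast, by a test of the difference itself, were taken for a closer look. In the change from 3 h to 7 h of R837, KO minus WT was 0.54 for Dusp1, 0.72 for Dusp2, 0.66 for Dusp5, 1.26 for Dusp6 and 1.07 for Dusp16 on the log2 scale. In the contrast of 7 h of R837 with 3 h of R837 and 4 h of ActD, it was 1.06 for Dusp16. In the change over 1 h of ActD, it was -0.53 for Dusp7, which did not hold when single libraries were left out. Groups of 3 libraries were too small for a check of single outlying libraries.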

How the results depend on the processing

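No paired analysis was possible because the labels give no replicate numbers that link libraries across groups. No called member changed sign under any alternative run. The number of members called was within 1.5 times the main number in 185 of 192 alternatives, and in 258 of 270 fits without 1 library. For KO minus WT at 2 h and at 4 h of ActD, 1 member was called when only the libraries compared were fitted and 1 at a threshold of 0.01. For the genotype difference in the 3 h to 7 h change 3 were called with stable-reference scaling, and for that in the loss over 1 h of ActD 2 with stable-reference scaling and 0 at 0.01; the cause was not tested. Without 1 library, the number of members called for KO minus WT ranged from 2 to 4 at 1 h, 1 to 3 at 2 h and 1 to 3 at 4 h of ActD, and from 0 to 1 for the difference in loss at 1 h.

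Stable-reference scaling moved the median of all genes by 0.20 for KO minus WT at 3 h, 0.28 at 4 h of ActD and 0.13 to 0.15 in size at 0.5, 1 and 2 h, and by -0.61 and -0.53 for 4 h of ActD in WT and KO. At 3 h, KO minus WT called 3818 genes, 2173 at a threshold of 0.01 and 2202 without KO replicate 1. The genotype difference in loss over 1 h of ActD called 1477 genes, 133 at 0.01, 4150 with stable-reference scaling and from 89 to 2538 without 1 library. At 0.5 h of ActD in WT 992 genes were called, 268 with only the libraries compared and 371 with stable-reference scaling. Depth limits Dusp8 and Dusp10 throughout, Dusp5 and Dusp6 after 2 h of ActD, and Dusp2 and Dusp4 in WT at 4 h of ActD.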
